A study of Drosophila melanogaster with 12 samples.

Results

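Cuticle proteins are the building blocks of the insect exoskeleton, and their genes form one of the largest gene groups of Drosophila melanogaster. In the deposited count table, 125 of 17716 gene symbols belonged to the group, chosen by symbol: those that begin with Cpr and a digit, Twdl, Ccp84, Lcp, Pcp, Edg or Acp65A. By family, 70 were Cpr genes, 26 Tweedle genes, 12 larval or adult cuticle genes of the 65A region, 7 Ccp84A genes, 6 other Lcp genes and 4 Edg or Pcp genes. In the Ensembl annotation used for positions (build BDGP6, the same assembly as dm6), 122 were protein-coding genes and 3 were pseudogenes. The genes lay on arm 2L (7), 2R (28), 3L (48), 3R (34) and X (8).

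Most Cpr, Lcp, Ccp84A, Pcp and Acp proteins carry the Rebers-Riddiford motif, which binds chitin fibres, whereas Tweedle proteins form a separate family that takes part in body shape. An epidermal cell makes a different set of cuticle proteins for each larval, pupal and adult cuticle, and pulses of the steroid hormone ecdysone set the order of these sets. Wing imaginal discs are the larval sacs that become the wing and part of the body wall. They face a major ecdysone rise at the end of the third instar and lay down their own pupal cuticle only after pupariation.

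RNA was sequenced from 12 pools of 60 third-instar wing discs, taken 6 days after egg laying, in 4 groups of 3 pools. Wild-type control discs (WT) carried abxUbx-Flp, the Act>y+>Gal4 driver with UAS eGFP, and FRT82B tubGal80 over a plain FRT82B chromosome. Activated Notch discs (N) had the same elements plus UAS Nicd, the active intracellular part of the Notch receptor. The combined discs (NS) differed from N in carrying scrib1 on the second FRT82B chromosome, where scribble (scrib) is a cell polarity gene whose loss lets discs overgrow. The scrib discs (S) came from animals of genotype FRT82B scrib1 over Df(3R)BSC752, with w- but without Flp, Gal4, Gal80 or eGFP. The driver elements were therefore present in WT, N and NS and absent from S. By the clonal scheme that the genotypes spell, Gal80 blocks the driver except where Flp has acted, so N and NS discs may hold cells of more than 1 genotype, whereas S discs were mutant throughout. For WT replicates 2 and 3 the genotype label names UAS Nicd as well, against their condition label, and each result named below was recomputed with WT replicate 1 as the sole control. Nothing in the labels says whether the pools of a group came from separate crosses, so each p-value reflects the spread among pools that may be technical replicates.

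The libraries held from 21024017 (NS replicate 2) to 42407447 (N replicate 3) counts. Levels below are in CPM, the deposited counts per 1000000 counts of a library, with library totals scaled by TMM factors. Notch transcript counts, which include any Nicd transgene reads, lay between 2016 and 2236 CPM in N and between 652 and 885 CPM in WT, including both WT pools with the conflicting genotype text. In NS they were 1602, 1458 and 501 CPM, so the library labelled NS replicate 3 lay under every WT library, against its label. After correction for exon length the values were 1453, 1284 and 1538 CPM in NS and 593 to 665 CPM in WT, and that library no longer stood apart. The scrib transcript lay between 348 and 448 CPM in WT, between 129 and 208 CPM in S, and at 394, 434 and 87.2 CPM in NS. What scrib1 does to the transcript is not given in the sources used here, so its level does not check the label. All 7 wing disc markers (nub, vg, ap, sd, wg, pdm2 and rn) were present in each group, but their levels differed. They summed to 1583 to 1818 CPM in WT, 2729 to 2985 CPM in N, 1079 to 1248 CPM in S and 870 to 2497 CPM in NS. Against WT, wg and vg were called higher in N and NS. In S, pdm2, nub and vg were called lower, and in NS pdm2 and nub. The library labelled NS replicate 3 and S replicate 3 had fewer counts on long genes than their group mates: over 9376 genes, the Spearman correlation between a gene's deviation and its exon length was -0.719 and -0.43. The median exon length of the cuticle genes was 840 bases, against 1734 bases for all protein-coding genes. The fits were repeated without the library labelled NS replicate 3 and S replicate 3. Of 168 results for the named genes, 23 gained a call, 4 lost one and 1 reversed, and not all of these are given below. Without the library labelled NS replicate 3 alone, 11 of the 12 cuticle genes lower in NS than in WT and all 5 that were higher kept their calls.

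Most cuticle genes were silent or nearly so in discs at this age. Of the 125 genes, 111 had at least 1 count in some library, 14 were listed at 0 throughout, and 33 had only 1 to 10 counts over all 12 libraries. The 44 genes that reached 1 CPM in at least 1 library included 13 that reached 10 CPM, and 31 genes had a count in each of the 12 libraries. The share listed at 0 was 11.2%, against 10.9% (1510 of 13833) for protein-coding symbols. The share that passed the filter on low counts was 37.6% (47 of 125), against 64% of protein-coding symbols. A 0 here allows up to 3 counts, which correspond to between 0.0662 and 0.148 CPM per library, and this covers counting error only. Because usp, which encodes the partner of the ecdysone receptor and is used in all tissues, was also listed at 0, a 0 in this table may come from the counting rather than from the discs.

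The silent genes were spread unevenly over the families. None of the 7 Ccp84A genes, which belong to pupal cuticle, reached 1 CPM in any library. Of the 26 Tweedle genes, 24 had a count but only 6 reached 1 CPM. Among the Cpr genes, 63 of 70 had a count and 27 reached 1 CPM. The 65A family had 8 of 12 genes with a count and 4 at 1 CPM, and the 6 other Lcp genes all had counts, 4 of them at 1 CPM. The 14 genes at 0 were Ccp84Ae, Cpr49Ab, Cpr57A, Cpr64Ad, Cpr65Ax1, Cpr65Ax2, Cpr76Ba, Cpr76Bb, Lcp65APsi, Lcp65Aa, Lcp65Ab1, Lcp65Ab2, TwdlT and TwdlZ. Cpr57A shares all of its exon bases with the odorant-binding gene Obp57d, so its counts may have been lost to that overlap.

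**Figure D1:**
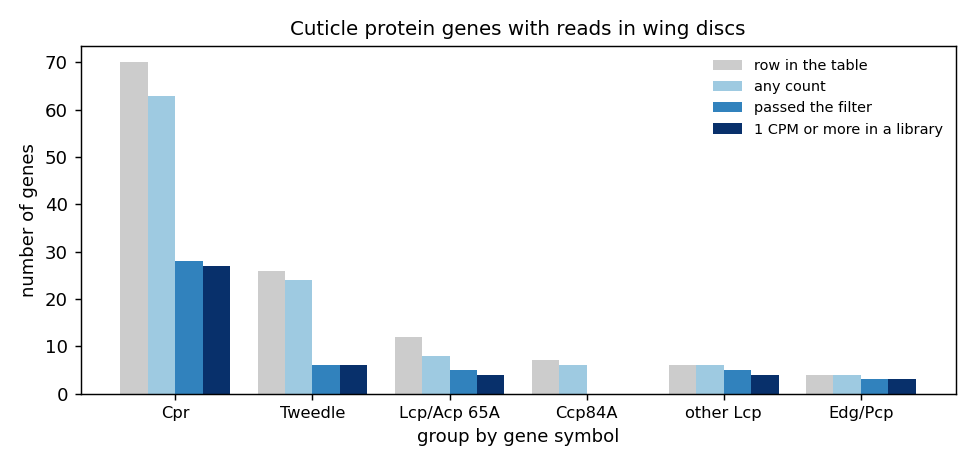
Number of cuticle genes per family (bars, from 0) with a row in the table, with any count, passing the filter on low counts, and reaching 1 CPM in at least 1 library. The Cpr family has the most detected genes (63 of 70 with a count, 27 at 1 CPM), and no Ccp84A gene reaches 1 CPM.

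With neighbours defined by gaps of at most 25000 bases, 91 of the 125 genes fell into 15 arrays of 3 or more. In 3 of the 15 arrays no member reached 1 CPM. Of the array members 27 of 91 reached 1 CPM, and of the genes outside arrays 17 of 34. The array of Edg84A and the Ccp84A genes at 3R:6684445-6704903 had 8 members, 7 with a count, and none at 1 CPM. The array of 12 Tweedle genes at 3R:26619118-26641054 likewise had no member at 1 CPM, although all 12 had a count. It starts 15067 bases from scrib, so it lies close to the mutated gene. The largest array, 19 genes at 3L:6130386-6161589 in region 65A, had 13 members with a count and 5 at 1 CPM.

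The total output of the group was highest in WT. Summed over all 125 genes, it was 586, 584 and 570 CPM in WT, 358, 318 and 289 CPM in N, 214, 181 and 310 CPM in S, and 126, 85.7 and 217 CPM in NS. Every N, S and NS library lay under every WT library. S overlapped with N through S replicate 3, and NS overlapped with S through the library labelled NS replicate 3. A few genes made most of this output, since the 5 highest genes gave 78.8% of it in WT, 77% in N, 76.3% in S and 54.6% in NS. In a bulk sample, fewer cells of a type and less RNA per cell cannot be told apart.

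Per kilobase of exon, the highest mean levels in WT were those of Cpr49Ac at 113, Cpr64Aa at 86.3, Cpr12A at 70.5, Cpr49Ah at 46.1 and Cpr49Ag at 35.6 CPM per kb. These Cpr genes are named for their cytological positions, and their roles in the wing are not well known. The order changed in the other groups. In N, Cpr49Ah led at 62.8, followed by TwdlE at 51.4, Cpr66D at 50.6 and Cpr12A at 48.5 CPM per kb. In S, Cpr49Ac led at 45.5, followed by Cpr47Eb at 40.4 CPM per kb. In NS, Cpr49Ah led at 25.9, and Lcp4 came next at 15.2 CPM per kb, almost all of it from 1 library.

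Levels of ecdysone response genes were taken as a mark of stage beside which the cuticle genes can be read. All discs were of the same age, so stage and genotype cannot be told apart. ImpE2, an ecdysone-inducible gene first found in imaginal discs, had 2786, 2936 and 2778 CPM in WT, 330, 91.6 and 317 CPM in N, 0.888, 1.37 and 1.74 CPM in S, and 0.608, 0.837 and 1.12 CPM in NS. WT discs thus stood apart from the other groups, and N discs stood between WT and both scrib groups. Of 25 ecdysone response genes with a row, 23 were tested, and 6 of them fell in N (Eip78C, ImpE1, ImpE2, Hr4, Hr46 and Blimp-1), 10 in S and 11 in NS, where 2.08%, 10.7% and 10.7% of all genes tested fell. The median log2 change of the list was -0.15 in N, -0.86 in S and -1.11 in NS, against 0.01, 0.04 and 0.03 over all genes tested. The nuclear receptor gene Eip78C fell 15.3-fold in N (log2 change -3.94, SE 0.443, adjusted p = 0.00117) and 75.6-fold in S (-6.24, SE 0.505, adjusted p = 2.08e-05). The receptor gene EcR did not pass the test in N, S or NS (adjusted p = 0.548, 0.734 and 0.639). ImpL2 and ftz-f1 rose in S and NS, where 12.7% and 13.9% of all genes did, and ftz-f1, a nuclear receptor gene of the prepupal stage, rose 2.52-fold in S (adjusted p = 0.0242). That list was drawn up with earlier results of these data known, and it serves as a description of stage.

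Cuticle genes were then sorted by the order of the libraries, for the 38 genes with a mean of at least 1 CPM in some group. A gene was counted as following the stage when every library of N, S and NS lay under the lowest WT library. The name stands for this order of libraries alone, and whether the hormone sets it was not tested. Of the 38 genes, 9 (23.7%) did so: Cpr12A, Cpr31A, Cpr35B, Cpr49Ac, Cpr64Aa, Cpr65Ec, Cpr78E, Edg78E and TwdlBeta. The same order held for 7.97% of the 8510 tested genes above that minimum. This is a description without a test, and Cpr35B and Edg78E reached the minimum through WT alone. In 9 further genes no group stood apart from WT, a pattern of 28.2% of all genes. Group by group, every N library lay under WT in 12 of the 38 genes (17.2% of all genes) and over WT in 7 (18.1%). Every S library lay under WT in 18 (24.4%) and over in 8 (28.7%), and every NS library under in 15 (21.9%) and over in 7 (23%). In 4 genes S and NS lay under WT while N did not (7.99% of all genes). Only Lcp65Ag1 had all 3 groups over WT, against 7.49% of all genes.

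**Figure D2:**
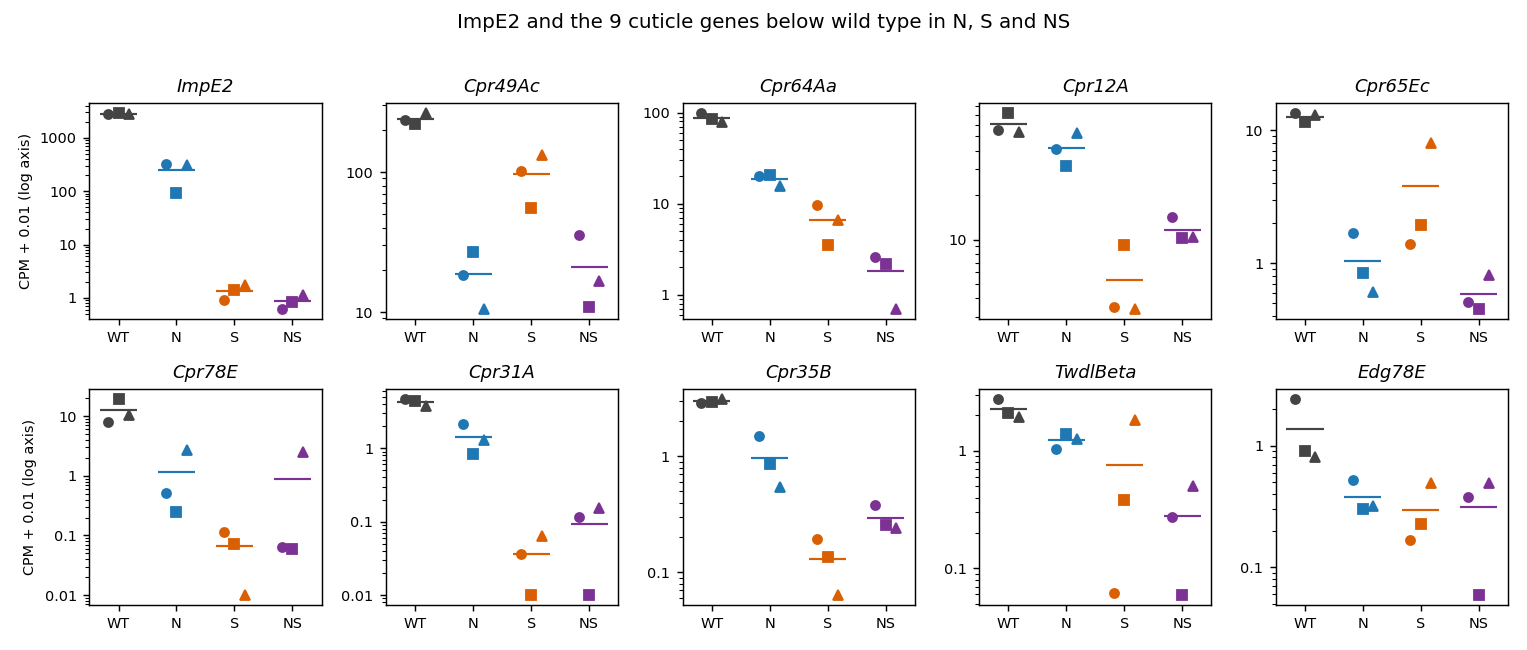
CPM (plus 0.01, log axis) of ImpE2 and the 9 cuticle genes whose N, S and NS libraries all lay under WT, by group. Circles, squares and triangles are replicates 1, 2 and 3 and each line is the group mean, and Cpr64Aa falls from 79 or more in WT to 2.62 or less in NS.

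The cuticle gene that fell in all 3 groups was Cpr64Aa. It had 98.9, 84.5 and 79 CPM in WT, 20.2, 20.6 and 15.6 CPM in N, 9.69, 3.47 and 6.6 CPM in S, and 2.62, 2.17 and 0.688 CPM in NS. The 4 groups did not overlap, and their order was that of ImpE2. Relative to WT it fell 4.66-fold in N (log2 change -2.22, SE 0.42, adjusted p = 0.0187), 13.2-fold in S (-3.73, SE 0.45, adjusted p = 0.000254) and 48.2-fold in NS (-5.59, SE 0.501, adjusted p = 4.93e-05), all by edgeR's quasi-likelihood test over 9444 genes. The S and NS calls held under each of the 23 alternatives. The N call was lost without WT replicate 1 or 2 and without any 1 of the N replicates (lowest adjusted p over the alternatives 1.45e-05). It was also lost without S replicate 1, NS replicate 1 and N replicate 2, the 3 libraries with the most fat body RNA (adjusted p = 0.0849). With WT replicate 1 as the sole control the log2 change in N was -2.38.

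Cpr12A, Cpr31A and Cpr35B also fell in both scrib groups. In all 3 genes N lay between WT and both scrib groups, as in ImpE2. Unlike in ImpE2, every NS library of Cpr12A and Cpr35B lay over every S library. Cpr12A had 55.5, 72.1 and 53.8 CPM in WT, 41.2, 31.3 and 52.5 CPM in N, 3.5, 9.15 and 3.38 CPM in S, and 14.2, 10.2 and 10.4 CPM in NS. N lay just under WT, with a log2 change of -0.54 that did not pass the test (SE 0.35, adjusted p = 0.537). Cpr12A fell 11.3-fold in S (adjusted p = 0.000158) and 5.2-fold in NS (adjusted p = 0.00132). Cpr31A had 4.67, 4.36 and 3.75 CPM in WT and 2.13, 0.816 and 1.3 CPM in N, and only 3 counts over all S libraries. From 513 counts in WT, its ratio of WT to S was 152, with an exact 95% counting interval of 51.8 to 740 (adjusted p = 0.000452). Cpr35B had 2.87, 2.92 and 3.12 CPM in WT, 1.5, 0.842 and 0.53 CPM in N, and at most 0.37 CPM in any S or NS library. It fell in S (log2 change -4.59, SE 0.571, adjusted p = 0.000308) and in NS (-3.37, SE 0.534, adjusted p = 0.00151). These S and NS calls against WT held under each of the 23 alternatives for the 3 genes. The lower N levels of Cpr31A and Cpr35B did not pass the test (adjusted p = 0.284 and 0.112). Both passed with DESeq2 and in a fit of only the groups compared. Without S replicate 3 and the library labelled NS replicate 3, that of Cpr35B also passed (log2 change -1.65, adjusted p = 0.0327).

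Cpr49Ac and Cpr65Ec lay under WT in all groups, but N did not lie between WT and both scrib groups as it did in ImpE2. Cpr49Ac, the cuticle gene with the most counts, had 237, 219 and 264 CPM in WT, 18.4, 26.9 and 10.5 CPM in N, 101, 55.2 and 133 CPM in S, and 35.6, 10.9 and 16.6 CPM in NS. Here N and NS were low and S was intermediate, with no overlap between S and either. Cpr49Ac fell 12.9-fold in N (log2 change -3.69, SE 0.504, adjusted p = 0.00321) and 11.4-fold in NS (adjusted p = 0.000791), both under each of the 23 alternatives. Its 2.49-fold lower level in S did not pass the test (adjusted p = 0.0601), but passed in 7 of 23 alternatives, among them DESeq2, the compared groups alone, exon length correction and without any 1 of the NS replicates (adjusted p from 0.0137 to 0.327). Cpr65Ec had 13.5, 11.5 and 13 CPM in WT, 1.67, 0.842 and 0.596 CPM in N, 1.38, 1.94 and 8.08 CPM in S, and 0.502, 0.443 and 0.803 CPM in NS. Only S replicate 3 came close to WT. Cpr65Ec fell in N (log2 change -3.61, SE 0.674, adjusted p = 0.0178) and in NS (-4.43, SE 0.707, adjusted p = 0.00156), and its S difference did not pass the test (-1.74, adjusted p = 0.0659). Without S replicate 3, and in 4 other alternatives, the S difference passed (adjusted p from 0.000986 to 0.299 over 23 alternatives). The N call of Cpr65Ec was lost without WT replicate 1 or 2 or N replicate 2 or 3 (lowest adjusted p over the alternatives 8.07e-07). It was also lost without the 3 libraries with the most fat body RNA (adjusted p = 0.107). With WT replicate 1 as the sole control its log2 change in N was -3.69.

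Cpr49Ag, the neighbour of Cpr49Ah in the 49A array, had the same kind of order without S standing apart. It had 25.4, 22.5 and 21.4 CPM in WT, 3.85, 5.37 and 4.57 CPM in N, 10.1, 12 and 29.6 CPM in S, and 3.54, 0.345 and 4.5 CPM in NS. S overlapped with WT through S replicate 3. Cpr49Ag fell in NS (log2 change -3.02, SE 0.676, adjusted p = 0.00971), a call lost with WT replicate 1 as the sole control (adjusted p = 0.0895, from 2.14e-05 over 23 alternatives). Its N level did not pass the test (-2.33, SE 0.654, adjusted p = 0.0912), but passed in 5 of 23 alternatives, among them without NS replicate 2 (adjusted p from 0.000404 to 0.349).

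The remaining genes counted as following the stage were weaker or more variable. Cpr78E had 8.03, 19.5 and 10.3 CPM in WT, 0.508, 0.237 and 2.74 CPM in N, 0.104, 0.0625 and 0 CPM in S, and 0.0528, 0.0493 and 2.55 CPM in NS. It fell in S (log2 change -7.74, SE 1.77, adjusted p = 0.0107), a call lost with WT replicate 1 as the sole control (adjusted p = 0.0943, from 3.41e-07 over 23 alternatives). The library labelled NS replicate 3 stood far over the other NS libraries, and the NS difference passed the test only in 5 of 23 alternatives, among them without that library (adjusted p = 0.0721, from 0.00206 to 0.422 over the alternatives). In N the difference of Cpr78E did not pass (log2 change -3.43, adjusted p = 0.242). It passed with the compared groups alone, and without S replicate 3 and the library labelled NS replicate 3 (-3.45, adjusted p = 0.0232). TwdlBeta and Edg78E passed the test in none of the groups. Edg78E, a pupal cuticle gene isolated from discs exposed to ecdysone, had 2.41, 0.897 and 0.791 CPM in WT, and outside WT its highest level was 0.508 CPM.

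The other genes named for ecdysone or the pupal stage did not share this order. Edg91, a glycine-rich protein gene, had 4.9, 3.97 and 6.89 CPM in WT, 2.06, 3.21 and 2.23 CPM in N, 2.04, 2.53 and 8.78 CPM in S, and 2.01, 1.18 and 3.81 CPM in NS, and was called in no comparison. Edg84A, which responds to ftz-f1 in prepupae, had 1 count over all 12 libraries, while ftz-f1 itself lay between 14.5 and 66.3 CPM. Pcp is described with the genes high in the library labelled NS replicate 3.

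Against all genes tested, the number of cuticle genes that fell in N was 4 of 47 (Cpr49Ac, Cpr65Ec, Cpr64Aa and Cpr56F), where the same call covered 2.08% of the 9444 genes. In S, 11 of 47 fell, against 10.7% of all genes, and in NS 12 of 47 fell, also against 10.7%. A gene may have passed the filter on low counts through the group where it is high, so these counts are a description of the genes tested and not of all 125. Beside the genes above, the fallen genes were Cpr51A, Cpr66D, Cpr67Fa2 and TwdlE in both scrib groups, Cpr56F and Cpr97Ea in S, and Cpr72Ea in NS. In all, 8 genes fell in both S and NS. Cpr67Fa2 was low throughout, with 0.872, 0.666 and 1.26 CPM in WT and at most 0.161 CPM in any S or NS library, and its close copy Cpr67Fa1 may have taken some of its reads. The S call of Cpr67Fa2 was lost without any 1 of the WT or N replicates or S replicate 1 or 2. Its NS call was lost without NS replicate 2. Both were lost without the low-count filter, and without the 3 libraries with the most fat body RNA (adjusted p = 0.107 and 0.079). With WT replicate 1 as the sole control, its log2 changes were -3.37 in S and -4.33 in NS. The median log2 change of the tested cuticle genes was -0.57 in N, -1.53 in S and -0.46 in NS, where the medians over all genes were 0.01, 0.04 and 0.03. Correction for exon length raised the number of fallen genes to 18 in S and to 18 in NS. Leaving out S replicate 3 and the library labelled NS replicate 3 raised it to 25 in S and to 22 in NS.

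**Figure D3:**
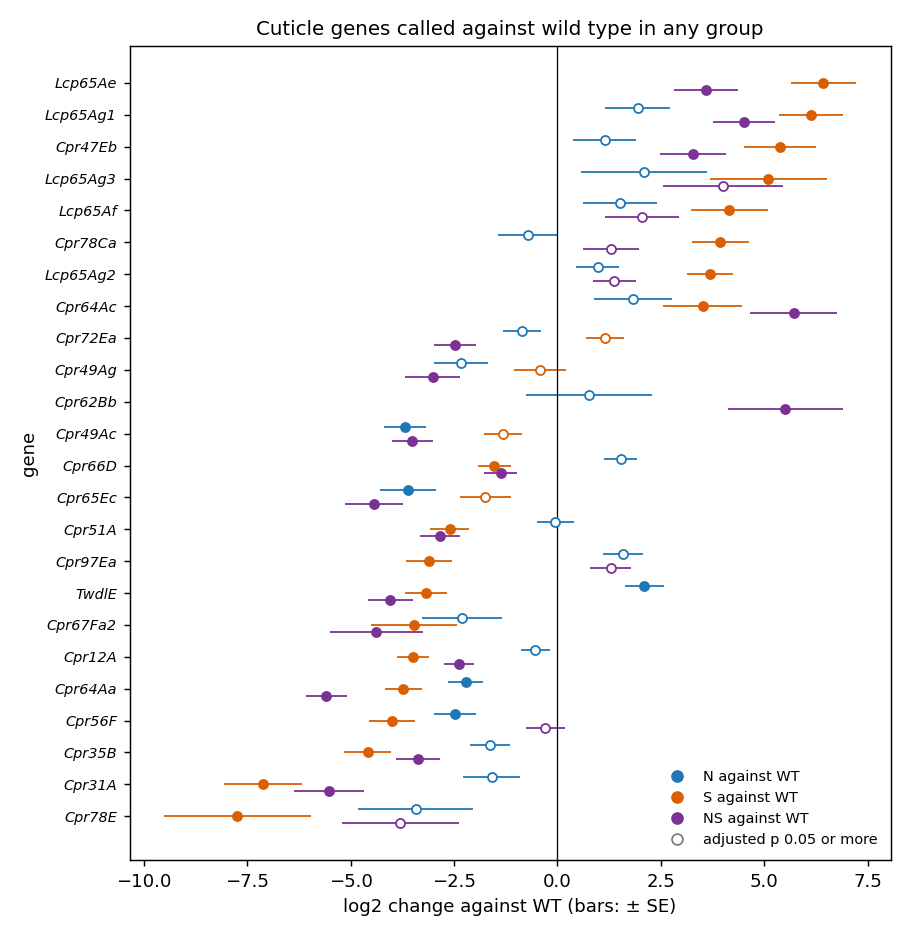
Log2 change against WT with its SE for the 24 cuticle genes called in N, S or NS, on a linear log2 axis. Filled points have an adjusted p under 0.05 and open points do not, and a value is left out where both groups hold 3 counts or fewer. Cpr64Aa is the gene with filled points under 0 in all 3 groups.

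A small set had the opposite order in N. TwdlE, Cpr66D and Cpr49Ah lay over WT in every N library and under WT in every S and NS library. Such an order was seen in 0.599% of all genes, and in 3 of the 38 cuticle genes. It was not among the orders planned, so these shares are a description without a test. TwdlE, a Tweedle gene at 2L:7857957-7860839, had 16.2, 17.7 and 14.5 CPM in WT, 101, 53.6 and 53.1 CPM in N, 2.43, 2.47 and 0.483 CPM in S, and 1.35, 0.591 and 0.918 CPM in NS. The N libraries did not overlap with WT, and both scrib groups lay far under it. TwdlE was the sole cuticle gene called higher in N (log2 change 2.10, SE 0.473, adjusted p = 0.0408), where 1.09% of all genes were. That call was lost in 11 of 23 alternatives, among them without WT replicate 1, 2 or 3, N replicate 1, 2 or 3, S replicate 2 or NS replicate 1 (adjusted p from 0.000809 to 0.372).

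The fall of TwdlE in the scrib groups was firmer. It fell in S (log2 change -3.17, SE 0.511, adjusted p = 0.00157) and in NS (-4.04, SE 0.543, adjusted p = 0.000558), and between N and NS it dropped by 6.14 on the log2 scale (SE 0.586, adjusted p = 0.000279). All 3 calls held under each of the 23 alternatives. TwdlE shares 71.9% of its exon bases with lectin-28C on the other strand, and whether reads were counted by strand is not given in the sources used here. The groups had another order in lectin-28C, which lay under TwdlE in WT and N and over it in every S library, at 3.1 to 5.96 CPM in WT, 2.16 to 2.95 CPM in N, 3.28 to 11.3 CPM in S and 0.197 to 3.07 CPM in NS.

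Cpr66D had 20.4, 18.1 and 19.3 CPM in WT, 66.9, 52.2 and 48.6 CPM in N, 9.37, 8.43 and 2.28 CPM in S, and 7.74, 8.87 and 5.76 CPM in NS. The groups did not overlap except for S and NS. Its higher N level did not pass the test (log2 change 1.53, SE 0.396, adjusted p = 0.07), although it passed without S replicate 3 or the library labelled NS replicate 3 and in 3 other alternatives (adjusted p from 0.00017 to 0.493). Cpr66D fell in S (-1.53, SE 0.401, adjusted p = 0.0205) and NS (-1.37, SE 0.4, adjusted p = 0.0306), and it was lower in NS than in N (-2.91, SE 0.419, adjusted p = 0.00196). The S call was lost without WT replicate 1 or 2 and with the compared groups alone (adjusted p = 0.052). The NS call was lost without WT replicate 1, 2 or 3 or NS replicate 1 or 3. Without the 3 libraries with the most fat body RNA both were lost (adjusted p = 0.052 and 0.0871). With WT replicate 1 as the sole control, the log2 changes were -1.59 in S and -1.45 in NS. The call of NS against N held under each of the 23 alternatives. Cpr49Ah moved less, from 43.9 to 47.9 CPM in WT to 51 to 74.1 CPM in N, 11.8 to 37.8 CPM in S and 20.2 to 36.5 CPM in NS, and was called in no comparison. Without the library labelled NS replicate 3 and S replicate 3 it passed in 5 of the 6 comparisons: lower in S (log2 change -0.47, adjusted p = 0.0427) and NS (-1.18, adjusted p = 0.000935) than in WT, lower in NS than in N (-1.61, adjusted p = 0.000403) and S (-0.71, adjusted p = 0.0341), and with an interaction of -1.14 (adjusted p = 0.0217). Without either of these libraries alone, the lower NS level of Cpr49Ah passed against WT and N, and with exon length correction these and its lower S level passed.

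Cpr51A also fell in both scrib groups without a shift in N. It had 13.9, 12.4 and 13.5 CPM in WT, 16.7, 17.1 and 4.66 CPM in N, 1.7, 2.9 and 1.96 CPM in S, and 1.85, 1.18 and 2.49 CPM in NS. S and NS lay apart from WT and overlapped with each other. The log2 change was -2.60 in S (SE 0.47, adjusted p = 0.00315) and -2.84 in NS (SE 0.476, adjusted p = 0.00208), each under all 23 alternatives.

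Against this background of lower levels, larval cuticle genes of the 65A array were higher in S. Of the tested cuticle genes, 8 of 47 rose in S, where 12.7% of all genes did: Lcp65Ag1, Lcp65Ae, Lcp65Ag2, Lcp65Af and Lcp65Ag3 from the 65A array, with Cpr47Eb, Cpr78Ca and Cpr64Ac. The 65A genes among them lie side by side at one end of the array, with only Cpr65Au, which had 1 count, between them. Lcp65Ag2, the most abundant of them, had 0.308, 0.333 and 0.582 CPM in WT, 0.532, 1.24 and 0.64 CPM in N, 7.05, 5.37 and 3.49 CPM in S, and 0.66, 0.837 and 1.69 CPM in NS. Every S library lay over every other library. Its log2 change in S was 3.69 (SE 0.547, adjusted p = 0.000939), under each of the 23 alternatives.

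Lcp65Ae, at 3L:6137583-6138118, had 2.27, 1.81 and 1.02 CPM in S, but 2 counts in all over the WT libraries and none over the N libraries. With 183 counts in S, the ratio of S to WT was 103, with an exact 95% counting interval of 28.1 to 856 (adjusted p = 0.000698). Lcp65Ag1, at 3L:6134697-6135274, had 1.57, 1.37 and 1.23 CPM in S and also 2 counts in WT, which gave a ratio of 84.3 (22.9 to 703, adjusted p = 0.000338). Both calls held under each of the 23 alternatives. Lcp65Af had 1.78, 1.25 and 1.13 CPM in S and at most 0.128 CPM in WT (log2 change 4.16, SE 0.925, adjusted p = 0.00917), a call lost only with WT replicate 1 as the sole control (adjusted p from 2.41e-05 to 0.152). Lcp65Ag3, with 42 counts in S and 1 in WT, had a ratio of 47.2 (8.02 to 1909, adjusted p = 0.026). Its call was lost without WT replicate 1 or 2 or S replicate 1 or 2, among other alternatives. The Lcp65Ag genes are close copies of one another, so the split of reads among Lcp65Ag1, Lcp65Ag2 and Lcp65Ag3 is uncertain, and all exon bases of Lcp65Ag3 overlap asRNA:CR46005.

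Outside that array, Cpr47Eb had the highest level of the genes that rose in S. It had 0.462, 1.1 and 0.791 CPM in WT, 0.653, 3.63 and 0.949 CPM in N, 18.4, 17.6 and 63 CPM in S, and 5.12, 4.38 and 13.4 CPM in NS. The S libraries stood over all others, and the NS libraries stood over WT and N. The log2 change was 5.39 in S (SE 0.866, adjusted p = 0.00156) and 3.28 in NS (SE 0.798, adjusted p = 0.014). Cpr78Ca had 0.992, 0.812 and 2.07 CPM in S and at most 0.296 CPM elsewhere (log2 change 3.94 in S, SE 0.685, adjusted p = 0.00256). The S calls of both genes were lost only with WT replicate 1 as the sole control (adjusted p from 4.63e-12 to 0.0609 for Cpr47Eb and from 1.26e-05 to 0.0555 for Cpr78Ca). The NS call of Cpr47Eb was lost there and without WT replicate 1 (adjusted p from 7.82e-05 to 0.16).

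In NS, 5 of 47 genes rose, where 13.9% of all genes did: Lcp65Ag1, Cpr64Ac, Lcp65Ae, Cpr47Eb and Cpr62Bb. The first 4 of these also rose in S. With WT replicate 1 as the sole control, the log2 changes in NS were 3.95, 6.40, 3.04, 4.04 and 4.06 in that order. Whether these calls held with that control is given in the section on processing. Cpr64Ac had 0.077, 0.205 and 0.0931 CPM in WT, 0.944, 0.211 and 0.199 CPM in N, 1.88, 2.25 and 0.242 CPM in S, and 8.43, 9.26 and 2.49 CPM in NS. Replicate 3 was the lowest in both scrib groups. Its log2 change was 5.71 in NS (SE 1.05, adjusted p = 0.00347) and 3.51 in S (SE 0.964, adjusted p = 0.025). The S call was lost without any 1 of the WT replicates or S replicate 1 or 2, among other alternatives. With WT replicate 1 as the sole control the log2 change in S was 4.20. Cpr62Bb had 93 counts in NS, 66 of them in NS replicate 1, against 2 in WT, a ratio of 60.5 with a counting interval of 16.3 to 507 (adjusted p = 0.0165). Its call was lost without WT replicate 2 or 3 and without the filter on low counts. It was also lost without the 3 libraries with the most fat body RNA (adjusted p = 0.0572).

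Summed levels of markers of some other cell types differed between the groups, and some single markers were called. Summed over 6 haemocyte markers, S had 76.6 to 349 CPM, WT 32.2 to 61.8 CPM, N 29 to 39.6 CPM and NS 44.5 to 81.8 CPM. Of these markers, Hml, Pxn and NimC1 were called higher in S than in WT. NimC1 was called lower in N and NS than in WT, and NimC1 and Hml lower in NS than in S. Summed over 7 fat body markers, S had 1185 to 13078 CPM and WT 311 to 927 CPM, and NS had 1143 to 7131 CPM. FASN1 was the sole fat body marker called, higher in S and NS. Of 4 tracheal markers, which matter because tracheal tubes make cuticle, 3 fell in S and NS (btl, trh and vvl) and 2 in N (btl and trh), while Gasp, a chitin-binding protein gene, rose in S (log2 change 1.16, SE 0.173, adjusted p = 0.000987) and NS. Their sum was 436 to 542 CPM in WT, 279 to 343 CPM in N, 462 to 588 CPM in S and 233 to 375 CPM in NS, so N and NS lay under WT. Summed over 6 myoblast and muscle markers, WT had 189 to 248 CPM, N 129 to 133 CPM, S 148 to 166 CPM and NS 118 to 159 CPM, with twi called lower in N and NS and zfh1 in NS. Neuron markers summed to 30.3 to 38.7 CPM in WT, 38.3 to 44 CPM in N, 17.2 to 151 CPM in S and 12.7 to 41.1 CPM in NS. Of these, brp was highest in S replicate 1, with 73.6 CPM, while no other library exceeded 0.513 CPM. S replicate 1 was also the highest library for Lcp65Ae, Lcp65Af, Lcp65Ag1 and Lcp65Ag2, and all 4 kept their S calls without it. Salivary gland markers summed to 0.209 to 61.1 CPM in WT, and to at most 1.11 CPM in N, 34.2 CPM in S and 0.264 CPM in NS. No neuron or salivary gland marker was called in any comparison. The part of these cells in the levels of cuticle genes in N, S and NS was not tested. Without the 3 libraries with the most fat body RNA (S replicate 1, NS replicate 1 and N replicate 2), 6 of the 8 genes that rose in S kept their calls, and Lcp65Ag3 (adjusted p = 0.0582) and Cpr64Ac (adjusted p = 0.0968) lost theirs. Of the fallen genes, 1 of 4 kept its call there in N, 9 of 11 in S and 9 of 12 in NS.

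**Figure D4:**
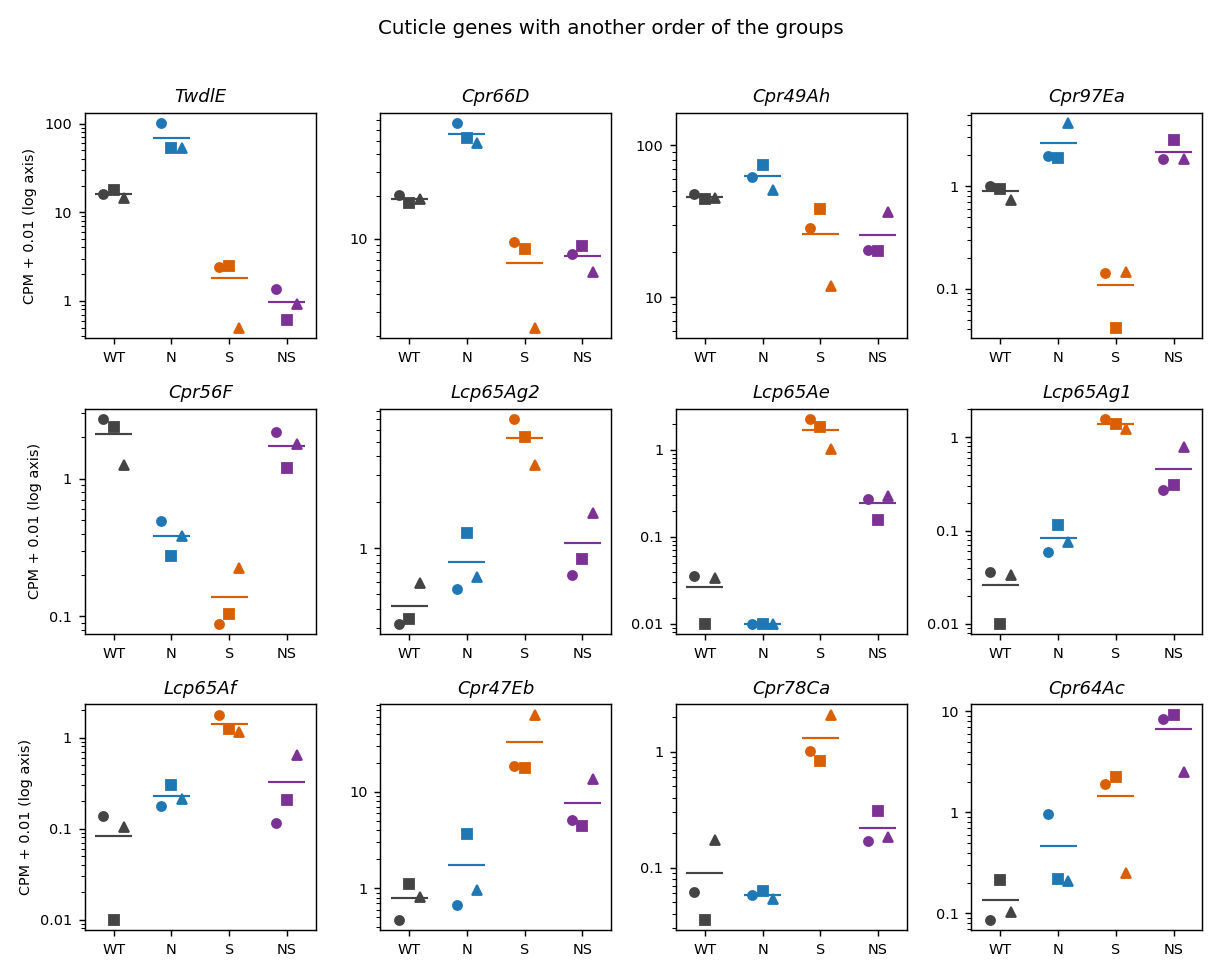
CPM (plus 0.01, log axis) of 12 cuticle genes whose order of groups differed from that of ImpE2, with circles, squares and triangles for replicates 1, 2 and 3 and a line for the group mean. Lcp65Ag2 is highest in the 3 S libraries (3.49 to 7.05 CPM), TwdlE in the 3 N libraries (53.1 to 101 CPM), and Cpr56F is lower in N and S than in WT and NS.

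The comparison of NS with N shows what went with scrib1 in discs that carried Nicd. Of 47 cuticle genes, 7 fell (TwdlE, Cpr64Aa, Cpr66D, Cpr51A, Cpr12A, Cpr100A and Cpr31A), against 3.66% of all genes, and 6 rose (Lcp65Ae, Cpr56F, Cpr64Ac, Lcp65Ag1, Cpr65Ay and Cpr62Bb), against 4.22%. Cpr64Aa fell 10.3-fold (log2 change -3.37, SE 0.461, adjusted p = 0.00165) and Cpr12A 3.58-fold (-1.84, SE 0.363, adjusted p = 0.0105). Cpr100A rested on 1 library, since N replicate 1 held 2.98 CPM and the other N libraries 0.553 and 0.486 CPM. With 166 counts in N and 1 in NS its ratio was 124, with a counting interval of 21.9 to 4924 (adjusted p = 0.0113), and the call was lost without N replicate 1 (adjusted p from 0.000609 to 0.0927). Lcp65Ae had 23 counts in NS and none in N, which made it at least 10.3-fold higher in NS against a floor of 3 counts over the group (adjusted p = 0.00611). The rises of Cpr65Ay (adjusted p = 0.0429) and Cpr62Bb (adjusted p = 0.04998) lay close to the threshold, and both were lost without any 1 of the WT or N replicates, S replicate 2 or the library labelled NS replicate 3, and Cpr62Bb without every other library in turn as well. Among the other rises, Cpr56F was lost without any 1 of the N replicates or NS replicate 1 (adjusted p from 0.000427 to 0.155). Cpr64Ac was lost without N replicate 2 or 3 or NS replicate 1 or 2 (from 0.000179 to 0.167), and Lcp65Ag1 without any 1 of the N replicates, WT replicate 1 or 3, S replicate 1 or 2 or the library labelled NS replicate 3 (from 0.00888 to 0.171). Leaving out 1 library changed the number of risen genes to between 1 and 5. Among the fallen genes, Cpr31A was lost without N replicate 1 (adjusted p from 4.41e-07 to 0.0789) and Cpr12A without N replicate 3 (from 2.22e-05 to 0.053).

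The comparison of NS with S asks what activated Notch went with in scrib mutant discs, although the groups also differ in the driver elements and in whether the whole animal was mutant. Of 47 cuticle genes, 3 rose (Cpr97Ea, Cpr56F and Cpr62Bb), against 1.57% of all genes, and 6 fell (Cpr72Ea, Cpr49Ac, Lcp65Ag2, Lcp65Ae, Cpr64Aa and Cpr78Ca), against 2.27%. Libraries of S and NS with the same replicate number deviated together, so the fit with the replicate number as a block is given beside these counts: 3 genes fell in it, and Cpr62Bb, Cpr78Ca, Lcp65Ae and Lcp65Ag2 lost their calls (adjusted p = 0.0728, 0.0903, 0.0968 and 0.0639). With the block in a fit of NS and S alone, no gene rose and 2 fell, Cpr49Ac (adjusted p = 0.0391) and Cpr47Eb (log2 change -2.02, adjusted p = 0.0118). Cpr72Ea, Cpr97Ea and Cpr56F lost their calls there (adjusted p = 0.0752, 0.0653 and 0.0703). At an unadjusted p under 0.05, edgeR gave 8 higher and 11 lower genes without the block. The calls of Cpr62Bb, Cpr64Aa, Cpr78Ca, Lcp65Ae and Lcp65Ag2 each ended without WT replicate 1, N replicate 1 or 3, S replicate 1 or NS replicate 1 or 2, and for some of them without further libraries, so that leaving out 1 library gave between 1 and 4 fallen genes. Cpr49Ac was 4.56-fold lower in NS than in S (log2 change -2.19, SE 0.474, adjusted p = 0.03), a call lost in 9 of 24 alternatives, among them without WT replicate 2, N replicate 1, S replicate 1 or 3, or NS replicate 2 or 3 (adjusted p from 8.57e-05 to 0.165).

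Cpr72Ea and Cpr97Ea moved in opposite directions in that comparison. Cpr72Ea had 0.59, 0.282 and 0.465 CPM in WT, 0.29, 0.29 and 0.154 CPM in N, 0.809, 1.09 and 1.07 CPM in S, and 0.0528, 0.0985 and 0.086 CPM in NS. S was the highest and NS the lowest group, with no overlap with the others. It fell in NS against S (log2 change -3.63, SE 0.523, adjusted p = 0.00341) and against WT (-2.48, SE 0.514, adjusted p = 0.00666). The call against WT was lost with WT replicate 1 as the sole control (adjusted p = 0.0661) and without the 3 libraries with the most fat body RNA (adjusted p = 0.0541), and the call against S there (adjusted p = 0.0786) and with the compared groups alone (adjusted p = 0.0569). Cpr97Ea had 1, 0.923 and 0.721 CPM in WT, 1.98, 1.87 and 4.13 CPM in N, 0.131, 0.0312 and 0.134 CPM in S, and 1.85, 2.81 and 1.84 CPM in NS. Both groups with Nicd lay over WT and S lay under it. Cpr97Ea was 20.9-fold higher in NS than in S (log2 change 4.39, SE 0.574, adjusted p = 0.00193) and fell 8.56-fold in S against WT (-3.10, SE 0.552, adjusted p = 0.00293). The call against S was lost with the compared groups alone (adjusted p = 0.0508), and the S call against WT held under each of the 23 alternatives. Its N and NS levels against WT did not pass the test (adjusted p = 0.123 and 0.0787).

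The interaction asks whether the difference between NS and S was unlike that between N and WT. S discs also lacked the driver elements, carried Df(3R)BSC752 and were mutant throughout. Effects of these and of scrib loss on the Notch response cannot be told apart. It was called for 1 of 47 cuticle genes, Cpr56F, as a positive value, which 0.858% of all genes had. Cpr56F had 2.72, 2.36 and 1.26 CPM in WT, 0.484, 0.263 and 0.375 CPM in N, 0.0783, 0.0937 and 0.215 CPM in S, and 2.19, 1.18 and 1.78 CPM in NS. N and S were both low, while NS overlapped with WT. Cpr56F fell 5.6-fold in N (adjusted p = 0.0268) and 15.9-fold in S (adjusted p = 0.000613), and was 13-fold higher in NS than in S (adjusted p = 0.00366). The call of NS against S was lost with the compared groups alone (adjusted p = 0.068), with the replicate block in NS and S alone (adjusted p = 0.0703) and without the 3 libraries with the most fat body RNA (adjusted p = 0.088). The interaction was 6.19 on the log2 scale (SE 0.746, adjusted p = 0.00317). It was lost without the 3 libraries with the most fat body RNA (adjusted p from 2.14e-12 to 0.0855 over 22 alternatives). The N call was lost without WT replicate 1 or 2 or any 1 of the N replicates (lowest adjusted p 4.38e-05). That call was also lost without a filter, with the replicate block (adjusted p = 0.0533) and without the libraries richest in fat body RNA (adjusted p = 0.184). With WT replicate 1 as the sole control the log2 change in N was -2.83. No cuticle gene had a negative interaction by edgeR, a call that 0.466% of all genes had. Of the tested genes, 7 had an unadjusted p under 0.05 in that direction and DESeq2 called 5. Without the library labelled NS replicate 3 and S replicate 3, 6 were called.

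One library carried a different set. Of the 44 cuticle genes that reached 1 CPM in a library, 9 had their highest level in the library labelled NS replicate 3, which was more than in any other library. Lcp4, a larval cuticle gene of the third instar, had 36 CPM there, 0.185 CPM in NS replicate 1 and none in NS replicate 2, against 1.74, 8.66 and 1.37 CPM in WT, 0.145, 2.82 and 6.93 CPM in N and 0.131, 0.219 and 1.48 CPM in S. Lcp1, next to Lcp4 in the same array, had 20.5 CPM there, 0.185 and 0 CPM in the other NS libraries, and 1.44, 6.59 and 1.79 CPM in WT. In S it had 0.131, 0.312 and 1.23 CPM, under every WT library, whereas Lcp4 overlapped between S and WT. Both genes varied from library to library within WT and NS. Pcp, a pupal cuticle gene, had 9.86 CPM in the library labelled NS replicate 3 and at most 0.725 CPM in the other 11 libraries.

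The same library gave 5.28 CPM of Cpr67B, 4.88 CPM of Cpr49Af, 3.04 CPM of Cpr60D and 1.29 CPM of Twdlalpha. The next library held 1.28, 0.188, 0.205 and 0.0233 CPM of these genes. Cpr49Af, Cpr60D and Twdlalpha, with Cpr47Ee at up to 1.05 CPM in WT replicate 2, were the 4 genes that reached 1 CPM in a library without passing the filter on low counts. None of Lcp1 to Lcp4, Pcp or Cpr67B was called in any comparison. For Lcp4 the log2 difference of NS and WT was 1.62 with all libraries (adjusted p = 0.545) and -5.18 without the library labelled NS replicate 3 and S replicate 3 (adjusted p = 0.0496), so that library decides its direction. Lcp1 and Lcp2 are close copies whose reads the counting could split.

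**Figure D5:**
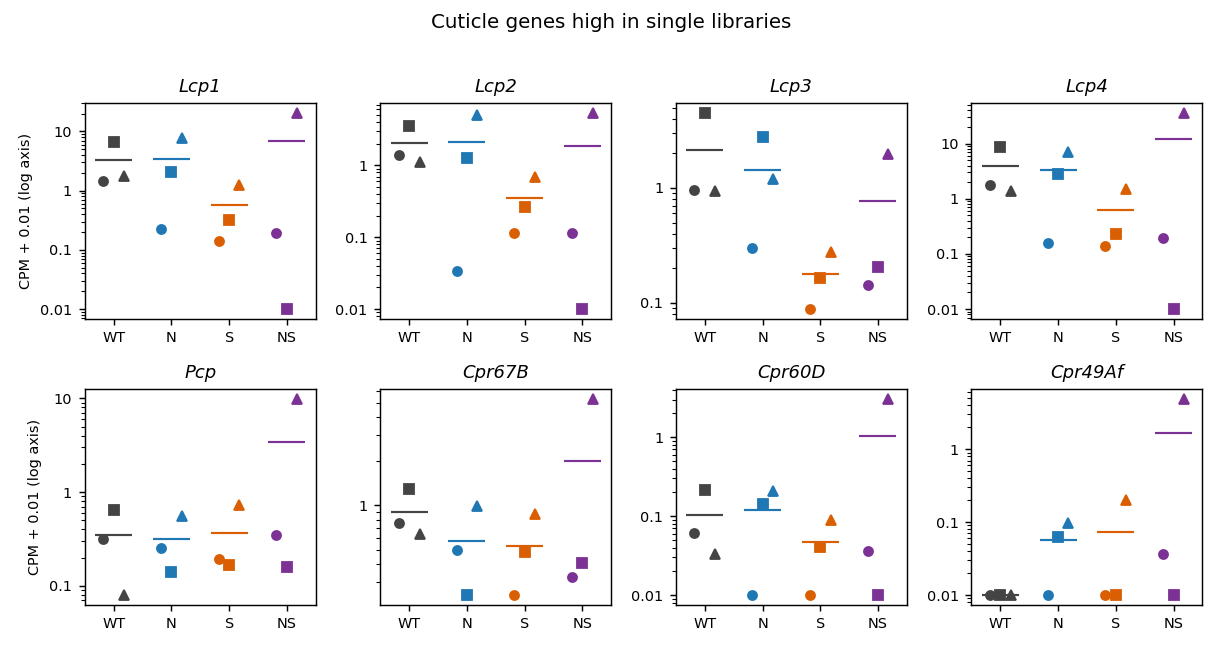
CPM (plus 0.01, log axis) of Lcp1 to Lcp4, Pcp, Cpr67B, Cpr60D and Cpr49Af in all 12 libraries, with circles, squares and triangles for replicates 1, 2 and 3 and a line for the group mean. In each gene except Lcp3 the highest point is the library labelled NS replicate 3, from 3.04 CPM for Cpr60D to 36 CPM for Lcp4.

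A few Tweedle genes varied within groups in another way. TwdlU had 2.67, 3.84 and 0.303 CPM in WT, TwdlF had 2.1, 2.77 and 0.0465 CPM, and TwdlW had 2, 1.85 and 0.303 CPM, so that WT replicate 3 was the lowest WT library in each. In S, replicate 3 was the highest library for all of them, at 0.859, 1.13 and 1.1 CPM. TwdlU and TwdlF are neighbours in the array at 3R:4243606-4255833. None of the 3 was called in any comparison.

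In total, 26 of the 47 tested cuticle genes were called in at least 1 of the 6 comparisons and 21 in none. Those in none included the Lcp1 to Lcp4 genes, Lcp9, Pcp, Edg78E, Edg91, Cpr11A, Cpr47Ec, Cpr67B and 5 Tweedle genes. A further 64 genes had counts but too few to be tested.

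Genes for other layers of the apical matrix were compared from lists drawn up with earlier results known. Of 24 tested genes of chitin synthesis, turnover and binding, 8 rose and 4 fell in S, and 5 rose and 6 fell in NS. Of all genes, 12.7% rose and 10.7% fell in S, and 13.9% rose and 10.7% fell in NS. The list's median log2 change was 0.52 in S and 0.31 in NS, against 0.04 and 0.03 over all genes tested. The chitinase gene Cht5 fell in N (log2 change -1.32, SE 0.297, adjusted p = 0.0412), S (-3.37, SE 0.322, adjusted p = 6.91e-05) and NS (-2.33, SE 0.308, adjusted p = 0.0005), whereas obst-E, a chitin-binding protein gene that shapes the larval cuticle, rose in N (1.75, SE 0.343, adjusted p = 0.0218), S (2.37, SE 0.349, adjusted p = 0.000902) and NS (3.54, SE 0.364, adjusted p = 0.000103). The chitin synthase gene kkv did not pass the test in any of the 3 (adjusted p = 0.955, 0.374 and 0.349). Of 11 tested apical matrix genes, mostly of the zona pellucida domain family, 6 fell in S and the same 6 fell in NS (m, nyo, neo, mey, dy and pio), against 10.7% of all genes in each, with dy at -7.10 in S (SE 0.867, adjusted p = 0.000277). Of 9 tested genes of cuticle hardening and pigment, 3 fell in S and 3 in NS, against the same 10.7%, among them amd in both (-2.64, SE 0.143, adjusted p = 2.53e-06 in S).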

How the data were processed

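Raw read counts per gene symbol were deposited by the authors for each of the 12 wing disc libraries. RNA was extracted with Trizol and sequenced from stranded mRNA libraries, per the labels' protocols. TopHat2 2.0.9, Bowtie2 2.1.0, HTSeq, edgeR and DESeq and the dm6 build are named, per the submitters' processing notes, while neither the annotation release nor the strand setting was given in the sources used here. Symbols were matched to the Ensembl annotation, 13320 to current symbols and 4210 through synonyms, and 186 were not matched.

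The counts were analysed in R 4.3.3 with edgeR 4.0.16 (filterByExpr with a minimum count of 10, TMM, quasi-likelihood test over all 4 groups, 8 residual degrees of freedom). P-values were adjusted by Benjamini-Hochberg over 9444 genes and called under 0.05. N, S and NS were each compared with WT, and NS with N and with S, and the interaction is NS - N - S + WT. The scripts were tested on simulated data. Standard errors are the log2 change divided by the root of F. Counting intervals and floors cover counting error only.

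Members and lists were chosen with earlier results of these data known. The genes named are those called in any comparison, the 12 with the highest mean CPM, those that reached 1 CPM without passing the filter, and the genes of the other lists with the smallest adjusted p. TwdlU, TwdlF, TwdlW, lectin-28C, kkv and the Lcp genes high in 1 library were named after their values were seen. The alternatives were other scalings, DESeq2 1.42.0, no filter, fits of only the groups compared, the replicate number as a block, leaving out each library, WT replicate 1 alone, an exon length correction, and leaving out libraries with few long-gene counts or with most fat body RNA. A block in NS and S alone and a robust spread were added after seeing the data, as was the order of libraries without the library labelled NS replicate 3 and S replicate 3.

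The pairing check used deviations from group means. Same-numbered libraries of S and NS correlated at 0.456, 0.493 and 0.327, so the numbers were taken to pair those groups. In each other pair of groups at least 1 correlation was 0.1 or less. The correlation of deviations with exon length also had the same sign in same-numbered libraries, at 0.437, 0.2 and -0.43 in S and 0.636, 0.584 and -0.719 in NS. Whether this shared skew, rather than a pairing of pools, gave the correlations was not tested. No pair of libraries held identical counts.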

Additional observations from a re-analysis of the deposited data

Results flagged for a closer look

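Cpr56F was the 1 cuticle gene for which edgeR called an interaction, where the difference of NS and S was unlike that of N and WT. The interaction was 6.19 on the log2 scale (SE 0.746, adjusted p = 0.00317 by edgeR over all genes): N was 5.6-fold under WT, whereas NS was 13-fold over S. The interaction was lost without the 3 libraries with the most fat body RNA (adjusted p = 0.0855), and the call of NS against S there (0.088), with the compared groups alone (0.068) and with the replicate block in NS and S alone (0.0703). In all 3 NS libraries the level (1.18 to 2.19 CPM) was over all 3 S libraries (at most 0.215 CPM), and in all 3 N libraries (at most 0.484 CPM) it was under all 3 WT libraries (at least 1.26 CPM). The S group differs from NS in its driver elements, in Df(3R)BSC752 and in being mutant throughout, as well as in Nicd. These cannot be told apart. DESeq2 called 5 positive and 5 negative interactions among the cuticle genes.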

How the results depend on the processing

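Genes called higher in N numbered 1, and 3 with DESeq2, 3 with the compared groups alone, 2 without the library labelled NS replicate 3 and S replicate 3 (the libraries with few long-gene counts), and 0 without a filter, with WT replicate 1 alone, or without the 3 richest in fat body RNA. Genes called lower in N numbered 4, and 7 with DESeq2, 10 with the compared groups alone, 9 without the libraries with few long-gene counts, 1 with WT replicate 1 alone and 1 without those richest in fat body RNA. In S, 8 genes were higher, and 3 with WT replicate 1 alone, while 11 were lower, and 17 with DESeq2, 18 with exon length correction and 25 without the libraries with few long-gene counts. In NS, 5 were higher, and 0 with WT replicate 1 alone, while 12 were lower, and 22 without the libraries with few long-gene counts.

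Against N, 6 genes were higher in NS, and 2 without a filter, 1 with the compared groups alone, 3 with the replicate block, 1 with WT replicate 1 alone and 0 without the libraries richest in fat body RNA, while 7 were lower, and 11 without the libraries with few long-gene counts and 4 without those richest in fat body RNA. Against S, 3 genes were higher in NS, and 0 with the compared groups alone, 5 without the libraries with few long-gene counts, 1 without those richest in fat body RNA and 0 with the replicate block in NS and S alone. There, 6 were lower, and 2 without a filter, 0 with the compared groups alone, 3 with the replicate block, 2 with the block in NS and S alone, 1 with WT replicate 1 alone and 1 without the libraries richest in fat body RNA. Interactions over 0 numbered 1, and 5 with DESeq2, 2 without the libraries with few long-gene counts and 0 without those richest in fat body RNA, and interactions under 0 numbered 0, and 1 with library totals, 5 with DESeq2, 6 without the libraries with few long-gene counts and 3 with exon length correction. The block changed 9 of 168 single-gene results, 8 of them to lost calls. Robust spread estimation changed 2 of 168.

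Leaving out 1 library gave 0 to 2 genes higher and 1 to 5 lower in N, 6 to 9 and 9 to 19 in S, and 4 to 6 and 11 to 16 in NS. It gave 1 to 5 higher and 5 to 9 lower for NS against N, 2 to 4 and 1 to 4 for NS against S, and 1 to 2 and 0 to 3 for the interaction. Genes with N, S and NS all under WT numbered 9, from 8 to 13 with 1 library left out, and 5 at a minimum of 5 CPM. Those with S and NS under and N not numbered 4, from 4 to 7, and 8 without the libraries with few long-gene counts. Those with all over WT numbered 1, from 1 to 2, and 0 at 5 CPM. At 5 CPM, 21 genes rather than 44 reached the threshold in a library. The 1 reversal was Lcp4 in NS against WT, at -5.18 without the libraries with few long-gene counts. WT replicate 1 alone and the compared groups alone hold fewer samples, and the cause of the other changes was not tested.

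The 64 genes with counts that did not pass the filter were not tested, and the 14 at 0 allow up to 0.148 CPM in the smallest library.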

Other observations

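Neighbouring genes did not always share their order of groups. In the 49A array, Cpr49Ac and Cpr49Ag were lowest in N and NS, Cpr49Ah was highest in N, and Cpr49Af was seen above 1 CPM in the library labelled NS replicate 3 alone. In the 64A array, Cpr64Aa had its highest mean in WT (87.5 ± 10.3 CPM, SD, n = 3) and its lowest in NS (1.82 ± 1.01), whereas Cpr64Ac had its lowest in WT (0.125 ± 0.0698) and its highest in NS (6.73 ± 3.69). In the 78 region, Cpr78Ca was highest in S. Edg78E, in the same array with Cpr78Cb between them, was highest in WT.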
